A study of Mus musculus with 55 samples.

Results

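The genes described here are 38 genes of DNA double-strand break repair and mismatch repair in mouse oocytes. They were taken by name from a list of symbols, not by a measured value. The list was chosen with earlier results of these data known. All 38 were found by symbol among the 33924 genes of 1 table of read counts. By identical exons they were also found among the 37310 features of a second table. Every one of them passed the filter on low counts in each comparison. The series holds 55 samples, of which 26 are RNA sequencing libraries, and 24 of these were used. The libraries of other assays in the series were not analysed here.

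The libraries came from 4 experiments on cells labelled oocyte, from ovary. Growing oocytes gave 3 libraries labelled control and 3 labelled Dhx36_sko, and the protocol names Dhx36fl/fl;SKO mice as the mutant source. The labels do not expand SKO, and the driver of the deletion is not given in the sources used here. A second experiment held libraries labelled c (2), c with DRB (1 used), rhau-sko (1 used) and rhau-sko with DRB (2). RHAU is another name of DHX36, a helicase that unwinds G-quadruplexes, and DRB inhibits CDK9, the kinase that releases RNA polymerase II into elongation. Neither the oocyte stage of that experiment nor the dose and time of DRB is given in the sources used here. GV oocytes, which are fully grown oocytes with an intact germinal vesicle, gave 3 libraries labelled C and 3 labelled cPDS at 12 h, and cPDS (carboxypyridostatin) is a ligand of RNA G-quadruplexes. The labels give no time for the C libraries. The fourth experiment held 3 libraries labelled Trim21 and 3 labelled control, both at 3 h, with Dhx36 in the name of each. TRIM21 binds antibodies and, as a ubiquitin ligase, is used to degrade the protein that an antibody recognises. No source used here gives strain, age or the number of oocytes per library, and nothing says whether replicates are separate animals, so the p-values measure the spread between these libraries, which may be technical.

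A double-strand break is first bound by the MRE11-RAD50-NBN complex, which activates the kinase ATM, while single-stranded DNA at the break activates ATR. Ubiquitin ligases and reader proteins then mark the flanking chromatin and direct the break either to end joining, in which the Ku proteins and ligase IV seal the ends, or to resection and homologous recombination, in which BRCA2 and its partners load the recombinase onto single-stranded DNA. Fanconi anaemia proteins act on crosslinked DNA and stalled forks, and mismatch repair proteins recognise and remove mispaired bases. Oocytes depend on these systems because they repair programmed meiotic breaks and then stay arrested for a long time, and growing oocytes store much of the RNA that the transcriptionally quiet GV oocyte uses.

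Libraries of growing oocytes held between 31930695 and 41075545 counts and the 6 used of the second experiment between 23010562 and 40968105. GV libraries held between 26509060 and 65444652 and Trim libraries between 7452742 and 32704737. The repair genes together took 0.272% to 0.310% of the counts in growing oocytes and 0.315% to 0.388% elsewhere. One c library with DRB (replicate 4, 129192 counts) and the library labelled rhau_sko replicate 6 (127927 counts) were left out for depth, and the latter went against its label with 46.9 CPM (counts scaled to a common library total) of Dhx36, from 6 counts. Dhx36 read 7.34, 8.06 and 10.9 normalised CPM in growing controls and 2.83, 1.95 and 1.73 in growing sko oocytes. In the second experiment it read 47.3, 42.5 and 38.2 without and 7.70, 4.42 and 5.73 with the sko. All 14 oocyte markers were present in every library. Markers of other cells were low but mostly not absent: the 17 granulosa and cumulus genes summed to 119 to 395 CPM per library, the 9 immune, endothelial and blood genes to 9.35 to 60.8 and the 10 theca and stroma genes to 2.33 to 10.2, against 15785 to 38252 for the oocyte markers. At 0 in all 6 libraries of growing oocytes were 2 of the 17 (Tnfaip6 and Ptx3), 1 of the 9 (Emr1) and 0 of the 10. At 0 in the 6 used of the second experiment were 1 of the 17 (Amh), 2 of the 9 (Hbb-b1 and Hba-a1) and 1 of the 10 (Col3a1). In the 6 GV libraries these were 1 of the 17 (Ptx3), 2 of the 9 (Hbb-b1 and Hba-a1) and 0 of the 10. In the 6 Trim libraries they were 2 of the 17 (Foxl2 and Amh), 3 of the 9 (Ptprc, Cdh5 and Hbb-b1) and 1 of the 10 (Cyp17a1). In bulk libraries, fewer cells of a type and less RNA per cell cannot be told apart.

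Levels of the repair genes spanned 0.400 to 137 normalised CPM per kb in growing control oocytes. Per kilobase of exon, the 4 highest in growing control oocytes were Xrcc5, which encodes the larger Ku subunit, at 137 normalised CPM per kb, Chek1, a checkpoint kinase gene, at 106, the ubiquitin ligase gene Rnf8 at 100.3 and Rad50 at 24.7 (means, n = 3). Chek1, Xrcc5, Rnf8 and Rad50 were also the 4 highest in c, in GV_C and in the Trim controls. Rnf8 is uncertain, because 41.6% of its exonic length overlaps exons of other genes. At the low end, Atm stood at 0.400 ± 0.0478 CPM per kb (SD, n = 3) in growing controls, Mlh3 at 0.440 and Fanca at 0.462, close to each other in level. GV_C held Chek1 at 185, Xrcc5 at 109, Atm at 0.795 and Fanca at 0.382. Xrcc4 stood at 3.94 CPM per kb in growing controls and at 21.7 in c, 15.2 in GV_C and 18.1 in the Trim controls. The experiments were scaled separately, so stage and experiment cannot be told apart for such differences.

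**Figure D1:**
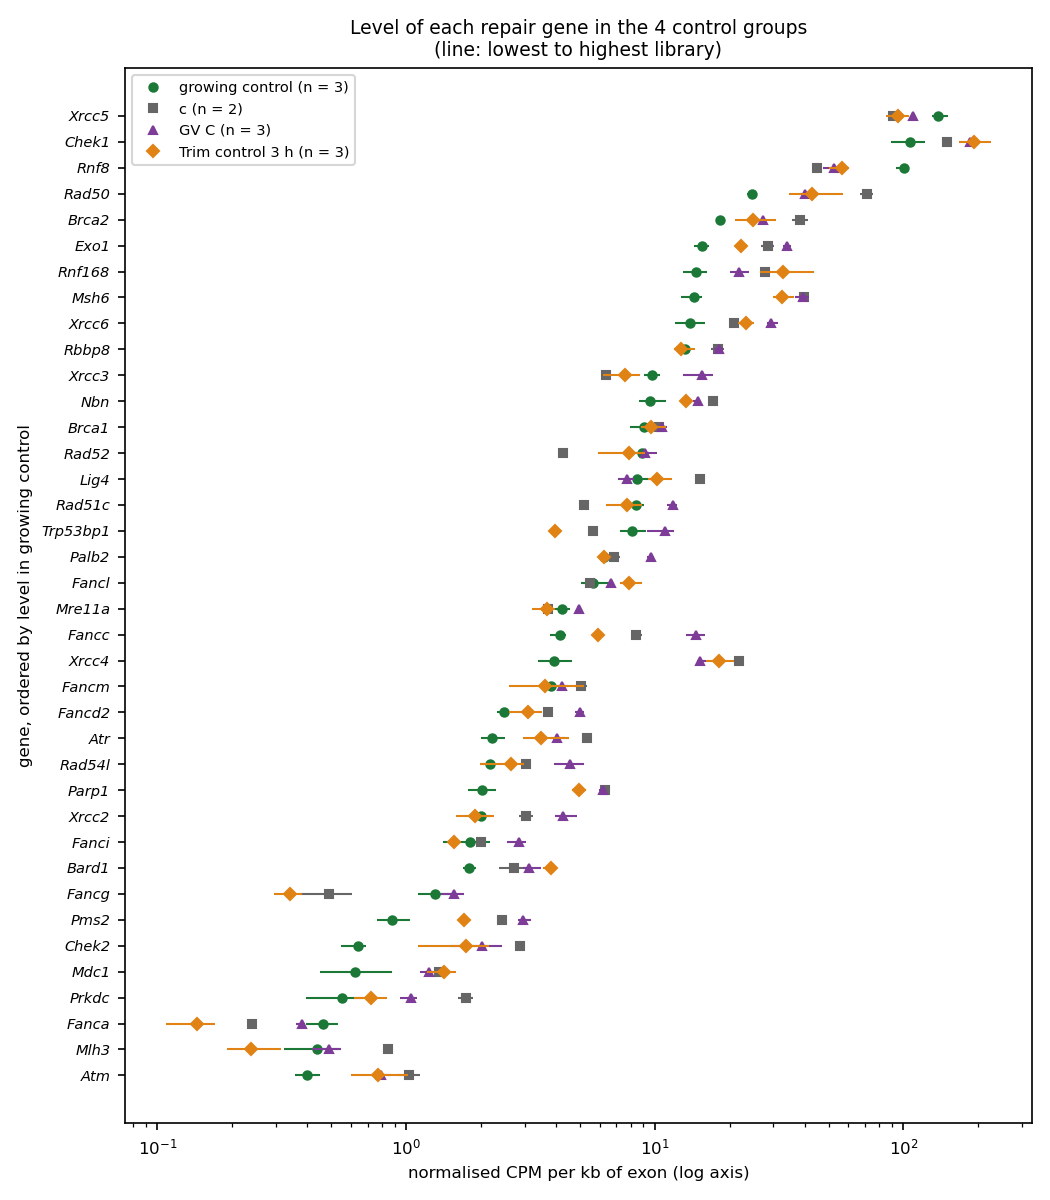
Mean normalised CPM per kb of exon (log axis) of each of the 38 genes in the 4 control groups, with a line from the lowest to the highest library. Xrcc5, Chek1, Rnf8 and Rad50 lie at the top in all 4 groups, and Xrcc4 lies at 3.94 in growing controls and at 15.2 to 21.7 in the others.

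Because the series concerns G-quadruplexes, the promoter windows of the repair genes were read from RefSeq (GRCm38.p6, a later build than the mm9 of the counts), from 250 bases before to 50 bases after each transcription start. A window exists for 31 of the 38 genes (35 windows). The motif searched was at least 4 runs of at least 3 G, GGG, with 1 to 7 bases (N) of any kind between runs, on either strand. It was found in 5 of 35 windows (14.3%) and in 6110 of all 32851 windows of the same length (18.6%). The 5 genes are Atr, Parp1, Msh6, Rad51c and Fancm, and in Rad51c and Fancm the motif reaches past the start. In Atr (chr9:95857508-95857536) the motif lies on the strand of the gene, and in Parp1 (chr1:180568752-180568789) and Msh6 (chr17:87974932-87974958) on the opposite one. The stretches that lie wholly before the start are printed 5′ to 3′ on the strand that holds the motif, with the motif in capitals and 5 flanking bases in lower case. All stretches that met this position rule are shown, whatever the calls of their genes. Atr was called in none of the comparisons below, Parp1 in 1 and Msh6 in 3. A link of the motif to these calls was not tested.
Atr: cgcctGGGAGGGAAAGTGGGCGGGcacgt
Parp1: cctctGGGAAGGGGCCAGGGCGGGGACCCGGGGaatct
Msh6: tagatGGGCGGGGCGGGGCGGGcccag
A match to these letters is a description of the DNA before the start, which is not transcribed from that start.

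Growing oocytes with less Dhx36 carried more RNA of the damage kinases Atm, Chek1 and Chek2, of Rad52 and Xrcc4 and of the mismatch repair genes Mlh3 and Pms2, and less RNA of Rad50 and Trp53bp1 (break sensing), Brca2, Rad51c and Xrcc3 (strand exchange) and the Ku gene Xrcc6. A gene was called where edgeR's quasi-likelihood test gave a Benjamini-Hochberg adjusted p under 0.05 over all 14081 genes tested. Of the 38 genes 7 were called higher (18.4%) and 16 lower (42.1%), against a background of 28.5% of all genes tested called higher and 25.2% called lower. The median log2 fold change was -0.22 over the repair genes and 0.02 over all genes. This split depends on the scaling. With library size alone the median of all genes moved to 0.21, and 10 repair genes were called higher (26.3%, against 34.3% of all genes) and 6 lower (15.8%, against 16.9%), a share near the background in the lower direction. The genes called lower under both scalings are Brca2, Rad50, Rad51c, Trp53bp1, Xrcc3 and Xrcc6, and the 7 called higher were called higher under both.

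Atm, the kinase that starts the response to breaks (mm9 chr9:53247254-53344845, minus strand), read 3.68, 4.66 and 4.05 normalised CPM in the controls and 10.97, 9.89 and 10.7 in the sko libraries. The groups did not overlap, and the means differed 2.55-fold, a log2 fold change of 1.35 ± 0.18 (SE; edgeR adjusted p = 1.19e-05). Chek1, the kinase that acts below ATR (chr9:36516067-36534650, minus strand), read 569, 497 and 412 CPM against 676, 709 and 689. All 3 sko libraries lay above all 3 controls, and the log2 fold change was 0.49 ± 0.13 (SE; edgeR adjusted p = 0.00519). Chek2, the checkpoint kinase below ATM, read 1.55, 1.23 and 1.54 CPM against 3.07, 2.11 and 2.12, a log2 fold change of 0.75 ± 0.30 (SE; edgeR adjusted p = 0.0417). This call ended when any 1 of the 6 libraries was left out, with log2 fold changes of 0.54 (without sko 4) to 0.84 (without sko 5 or sko 6), and without the filter on low counts. Atr itself was not called (21.2, 17.1 and 17.9 CPM against 15.6, 19.1 and 17.2, log2 fold change -0.12 with a 95% interval that stayed within 2-fold either way).

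Of the break sensing and chromatin adaptor genes 5 of 8 were called lower and none higher, against 25.2% of all genes called lower. With library size alone 2 of the 8 were called lower, Rad50 and Trp53bp1, against 16.9% of all genes. Trp53bp1 (chr2:121019017-121097143, minus strand), whose product shields ends from resection, read 109, 131 and 103 CPM in controls and 74.2, 70.0 and 70.0 in sko oocytes, without overlap, and had a log2 fold change of -0.68 (SE 0.13; edgeR adjusted p = 0.000284). Of its exonic length 15% overlaps Tubgcp4 on the other strand, and the strand setting of the counting is not given in the sources used here. Rad50, the coiled-coil subunit that tethers the ends, read 127, 134 and 140 CPM against values between 93.6 and 96.5, a fall that was larger than the spread of either group (log2 fold change -0.49 ± 0.11, SE; edgeR adjusted p = 0.00176). Its partners Nbn (log2 fold change -0.48) and Mre11a (-0.38) were also called lower, so all 3 genes of the complex fell. The Nbn call ended without control 1 (-0.36), without sko 5 (-0.37) and with library size alone (-0.28), and the Mre11a call with library size alone (-0.20). Rnf168, a ubiquitin ligase gene of break-flanking chromatin, was called lower at -0.31 (edgeR adjusted p = 0.0433), but not without control 2 (-0.32), control 3 (-0.26), sko 4 (-0.31), sko 5 (-0.31) or sko 6 (-0.32), nor with library size alone (-0.13). Parp1, which makes poly(ADP-ribose) at breaks, was not called, at 6.81, 7.66 and 8.86 CPM against 7.26, 6.48 and 8.23.

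Genes of recombination moved both ways. Rad52, which encodes a protein that anneals single strands (chr6:119852716-119872846, plus strand), read 30.8, 30.0 and 29.4 CPM in controls and 66.1, 63.9 and 57.2 in sko libraries. All 3 sko libraries lay far above the 3 controls, and its log2 fold change of 1.05 ± 0.12 (SE) had the smallest adjusted p of the 38 genes here (3.22e-06, edgeR). Brca2, the gene of the recombinase loader (chr5:151325205-151372321, plus strand), read 197, 191 and 202 CPM against 113, 114 and 112. The libraries within each group lay close together, and the log2 fold change was -0.80 ± 0.11 (SE; edgeR adjusted p = 2.23e-05). Rad51c and Xrcc3, genes of 2 paralogues of the recombinase that form a complex, read 36.9 ± 3.57 and 26.7 ± 1.97 CPM in controls and 23.0 ± 1.94 and 15.1 ± 2.53 in sko oocytes (SD, n = 3), log2 fold changes of -0.68 and -0.82 (edgeR adjusted p = 0.000448 and 0.000270). Brca1, which drives resection and recruits BRCA2 through PALB2, was at 84.2, 78.4 and 67.6 CPM in controls and 65.4, 67.3 and 65.6 in sko libraries. These groups did not overlap, yet the log2 fold change of -0.22 was not called (edgeR adjusted p = 0.147), and it was called without control 3 (-0.32). Bard1, Palb2, Xrcc2 and Rad54l were not called either. Of the resection genes, Exo1 was called lower (-0.29) and not with library size alone (-0.10), and Rbbp8 was not called (0.14).

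Xrcc6 and Xrcc5 encode the 2 subunits of Ku, the ring that binds broken ends, and both were called lower. Xrcc6 (chr15:81818265-81870515, plus strand) read 71.6, 60.6 and 53.8 CPM in controls and 34.4, 33.8 and 32.1 in sko oocytes, a log2 fold change of -0.89 ± 0.13 (SE; edgeR adjusted p = 3.94e-05). Xrcc5 fell less (-0.33) and was not called with library size alone (-0.14). Xrcc4, which stabilises ligase IV, moved the other way, from 19.5, 14.2 and 16.1 CPM to 24.7, 30.0 and 24.1 (0.66 ± 0.15, SE; edgeR adjusted p = 0.00180). Prkdc, the gene of the kinase that Ku recruits, was called lower at -0.54 (edgeR adjusted p = 0.0422) although 1 control (5.03 CPM) lay among the sko values (4.65, 4.66 and 5.11). The Prkdc call ended without control 1 (-0.51), control 3 (-0.40), sko 4 (-0.52), sko 5 (-0.52) or sko 6 (-0.59) and with library size alone (-0.35). Lig4, the ligase gene, was not called (0.38).

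Mlh3, a MutL gene needed for meiotic crossovers, read 2.99, 2.53 and 1.79 CPM in controls and 4.97, 5.65 and 4.35 in sko oocytes, a log2 fold change of 1.03 ± 0.25 (SE; edgeR adjusted p = 0.00226). Pms2, the MutL gene of mismatch repair, rose from 7.44 ± 1.16 to 11.2 ± 1.09 CPM (SD, n = 3; log2 fold change 0.59, edgeR adjusted p = 0.00889), a call that ended without control 2 (0.48). Msh6, a subunit of the mismatch recognition complex, went from 54.3, 63.7 and 65.8 CPM to 44.4, 40.6 and 43.3, without overlap (-0.52 ± 0.12, SE; edgeR adjusted p = 0.00242), and was not called with library size alone (-0.34). Among the 7 Fanconi anaemia genes, Fancg (-0.60), Fanci (-0.75) and Fancm (-0.54) were called lower and none higher, against 25.2% and 28.5% of all genes. None of these calls held with library size alone (-0.41, -0.56 and -0.35). The Fanci call also ended without control 2 (-0.61), sko 5 (-0.61) or sko 6 (-0.62), and its groups overlapped, at 10.5, 12.5 and 8.11 CPM against 8.76, 4.81 and 4.90.

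Of 71 other repair genes tested, 8 were called higher and 27 lower in growing sko oocytes, with a median of -0.27. Over all genes tested 28.5% were called higher and 25.2% lower. With library size alone 12 of the 71 were called higher and 16 lower, against 34.3% and 16.9% of all genes. Timeless, of the fork protection complex, fell from 75.5 to 26.7 CPM and the nuclease gene Mus81 from 41.4 to 13.3, while Topbp1, the activator of ATR, rose from 35.0 to 79.9 (means, n = 3). Nhej1, an end joining factor gene, fell from 54.5 to 22.1 CPM. Beside these results, the summed level of 17 granulosa and cumulus markers was 119 to 196 CPM in controls and 194 to 218 in sko libraries, and 5 of 11 tested were called higher. The summed level of 10 theca and stroma markers was 2.90 to 3.41 CPM against 4.96 to 8.83, with 2 of 3 tested called higher, and that of 9 immune, endothelial and blood markers 11.6 to 13.5 against 9.35 to 11.998. Oocyte markers summed to 36622 to 37048 CPM in controls and 33157 to 38252 in sko libraries, with 2 of 14 called higher and 5 lower. The part of these cells in the repair gene results was not tested.

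**Figure D2:**
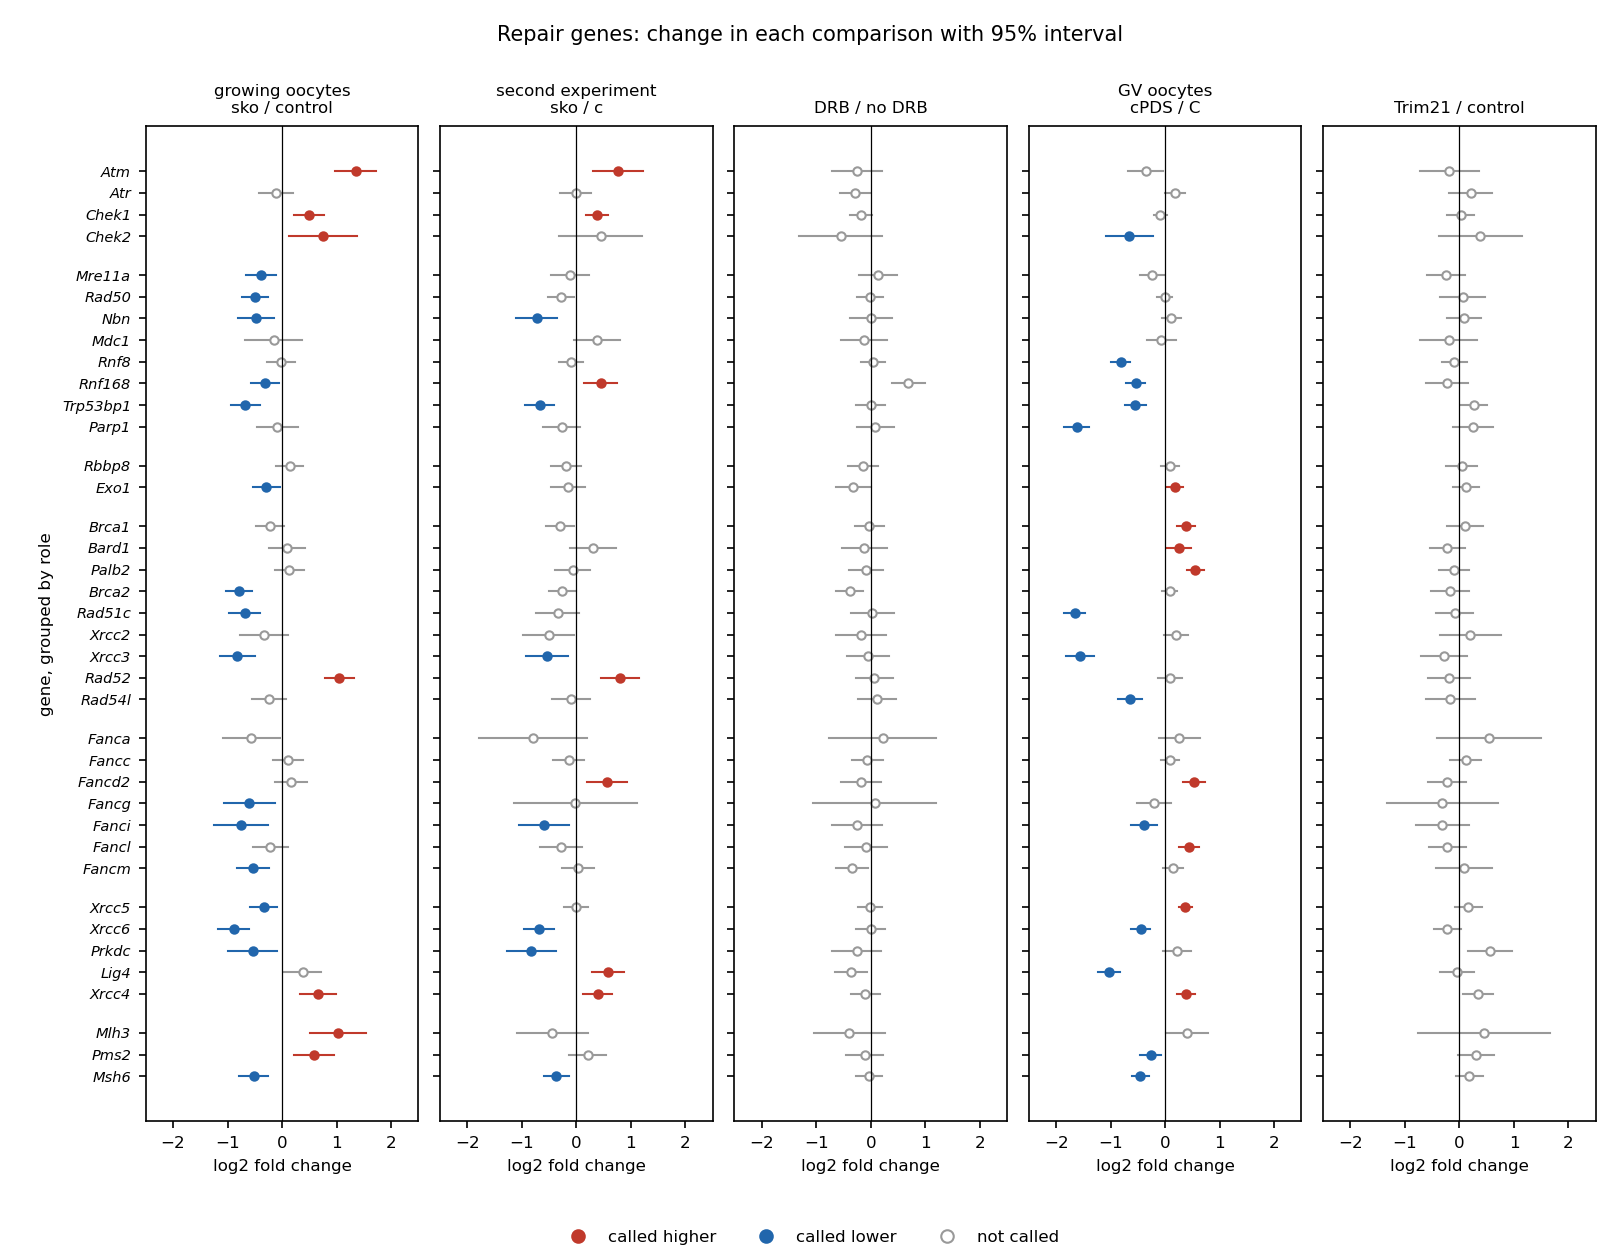
Log2 fold change (x axis) of each of the 38 genes, grouped by role from the damage kinases at the top to mismatch repair at the bottom, in the 5 comparisons, with its 95% interval and with called genes filled. Growing sko oocytes show 7 higher and 16 lower, the second experiment 7 and 7, cPDS 8 and 13, and the DRB and Trim21 comparisons none.

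The second experiment asked again how repair transcripts differ where Dhx36 is lower, with libraries that the growing oocyte comparison did not use. The sko change was taken over 3 c and 3 sko libraries, with DRB as a term of the fit. Where the c_DRB library is left out below, this change rests on the rhau_sko library alone against c without DRB. Where the rhau_sko library is left out, it rests on the c_DRB library alone against rhau_sko with DRB. Calls lost in these fits may reflect that lack of replicates. The main fit is described next. The main fit gave 7 repair genes called higher (18.4%) and 7 lower (18.4%) by edgeR, against 19.9% and 17.9% of all 15923 genes tested, so the count alone is near the background. Called in both experiments were 12 genes, which is 12 of the 23 called in growing oocytes, 12 of the 14 called here and 31.6% of the 38. Of the 13684 genes tested in both experiments 28.9% were called in both, so this share too is near the background. Over all these genes 14.3% were higher in both, 13.2% lower in both and 1.40% called in opposite directions, against 10.5%, 18.4% and 2.63% of the repair genes. Of the 12 genes, 4 were higher in both (Atm, Chek1, Rad52 and Xrcc4), 7 lower in both (Nbn, Trp53bp1, Xrcc3, Fanci, Xrcc6, Prkdc and Msh6) and 1, Rnf168, went in opposite directions.

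Rad52 read 14.7 and 14.2 CPM in c, 15.5 in c with DRB, 25.7 in rhau_sko and 28.4 and 24.4 in rhau_sko with DRB. Each sko library lay above each c library, a log2 fold change of 0.80 ± 0.16 (SE; edgeR adjusted p = 0.00240), as in growing oocytes at a lower level. Atm read 9.51 and 11.8 CPM in c, 7.48 with DRB, 15.1 in rhau_sko and 14.8 and 15.6 with DRB, and rose, with a log2 fold change of 0.76 ± 0.21 (SE; edgeR adjusted p = 0.0150). That call ended without c replicate 1 (0.73) or the c_DRB library (0.50). Chek1 rose from 686, 706 and 599 CPM to 882, 791 and 806 (log2 fold change 0.38, edgeR adjusted p = 0.00791), and not so without the c_DRB library (0.33) or with the shallow libraries included (0.13). Xrcc4 rose from 91.7, 91.2 and 75.9 CPM to 107, 112 and 112 (0.39, edgeR adjusted p = 0.0247), a call lost without c 1 (0.42), c 2 (0.42) or c_DRB 3 (0.21) and with the shallow libraries (0.34). Chek2 was not called here, at 6.51, 6.35 and 2.70 CPM against 5.51, 6.67 and 5.32.

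Among the genes lower in both, Xrcc6 read 95.1 and 92.0 CPM in c, 83.7 with DRB, 51.9 in rhau_sko and 58.4 and 57.4 with DRB, a log2 fold change of -0.69 ± 0.12 (SE; edgeR adjusted p = 0.00147). Trp53bp1 read 76.2, 83.4 and 86.6 CPM against 54.1, 52.4 and 47.7, and its log2 fold change of -0.68 equals that in growing oocytes at 2 decimals (edgeR adjusted p = 0.00148). With Rad52, these are the 3 genes that were called under every alternative of this comparison. Nbn fell from 44.1, 43.0 and 39.7 CPM to 23.8, 31.6 and 21.3 (-0.73, edgeR adjusted p = 0.00715), a call that ended without the rhau_sko library (-0.59) and with the shallow libraries (-0.59). Prkdc fell from 23.5, 20.5 and 20.4 CPM to 13.8, 12.7 and 8.04 (-0.83, edgeR adjusted p = 0.00907), but not without the c_DRB library (-0.68). Msh6 read 169, 171 and 157 CPM against 124, 126 and 132 (-0.37, edgeR adjusted p = 0.0184), without overlap. Its call ended without c 1 (-0.36), c 2 (-0.35) or rhau_sko 5 (-0.29) and with the shallow libraries (-0.43).

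Xrcc3 (-0.53) and Fanci (-0.59) were called lower at adjusted p of 0.0325 and 0.0435 (edgeR), and both calls ended when 1 library was left out. For Xrcc3 these libraries were c 1 (-0.56), c 2 (-0.52), c_DRB 3 (-0.45), rhau_sko 5 (-0.63) and rhau_sko_DRB 8 (-0.47), and for Fanci c 1 (-0.57), c 2 (-0.63), c_DRB 3 (-0.52), rhau_sko 5 (-0.68) and rhau_sko_DRB 8 (-0.52). Fancd2, whose product forms the ubiquitinated Fanconi pair with FANCI, was called here and not in growing oocytes. It read 29.6, 29.7 and 32.3 CPM in the c libraries and 53.8, 44.2 and 32.9 in the sko libraries (0.56, edgeR adjusted p = 0.0234), and without the rhau_sko library, the highest, the log2 fold change was 0.25. The call also ended without c 1 (0.51), c 2 (0.52) or rhau_sko_DRB 7 (0.51). Lig4, at 66.5, 62.6 and 58.0 CPM against 112, 68.3 and 80.8, was called higher (0.58, edgeR adjusted p = 0.00635) and not without the rhau_sko library (0.36). Brca1 read 94.8, 81.9 and 85.7 CPM against 70.5, 72.3 and 68.3, again without overlap and again not called (-0.31, edgeR adjusted p = 0.0616), while DESeq2 and the scaling by library size called it. Atr (-0.01) and Parp1 (-0.27) were not called.

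Over all genes tested in the second experiment 19.9% were called higher and 17.9% lower. Of 71 other repair genes tested, 4 were called higher and 25 lower in the second experiment. Timeless (74.6 to 33.9 CPM) and Nhej1 (103 to 50.5) fell in it. The helicase gene Wrn (74.9 to 146) and the mismatch repair gene Msh3 (215 to 348) rose. Each mean is over 3 libraries, of which 1 of the c side and 2 of the sko side had DRB. These means are therefore not balanced for DRB. The 17 granulosa and cumulus markers summed to 239 to 288 CPM in the c libraries and 331 to 395 in the sko libraries, with 5 of 11 tested called higher. Oocyte markers summed to 19378 to 21936 CPM against 15785 to 15961, with 1 of 14 called higher and 9 lower. Theca and stroma markers summed to 3.58 to 5.20 CPM against 6.26 to 10.2 and immune, endothelial and blood markers to 41.4 to 49.1 against 23.5 to 32.9. Their part in the repair gene results was not tested.

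**Figure D3:**
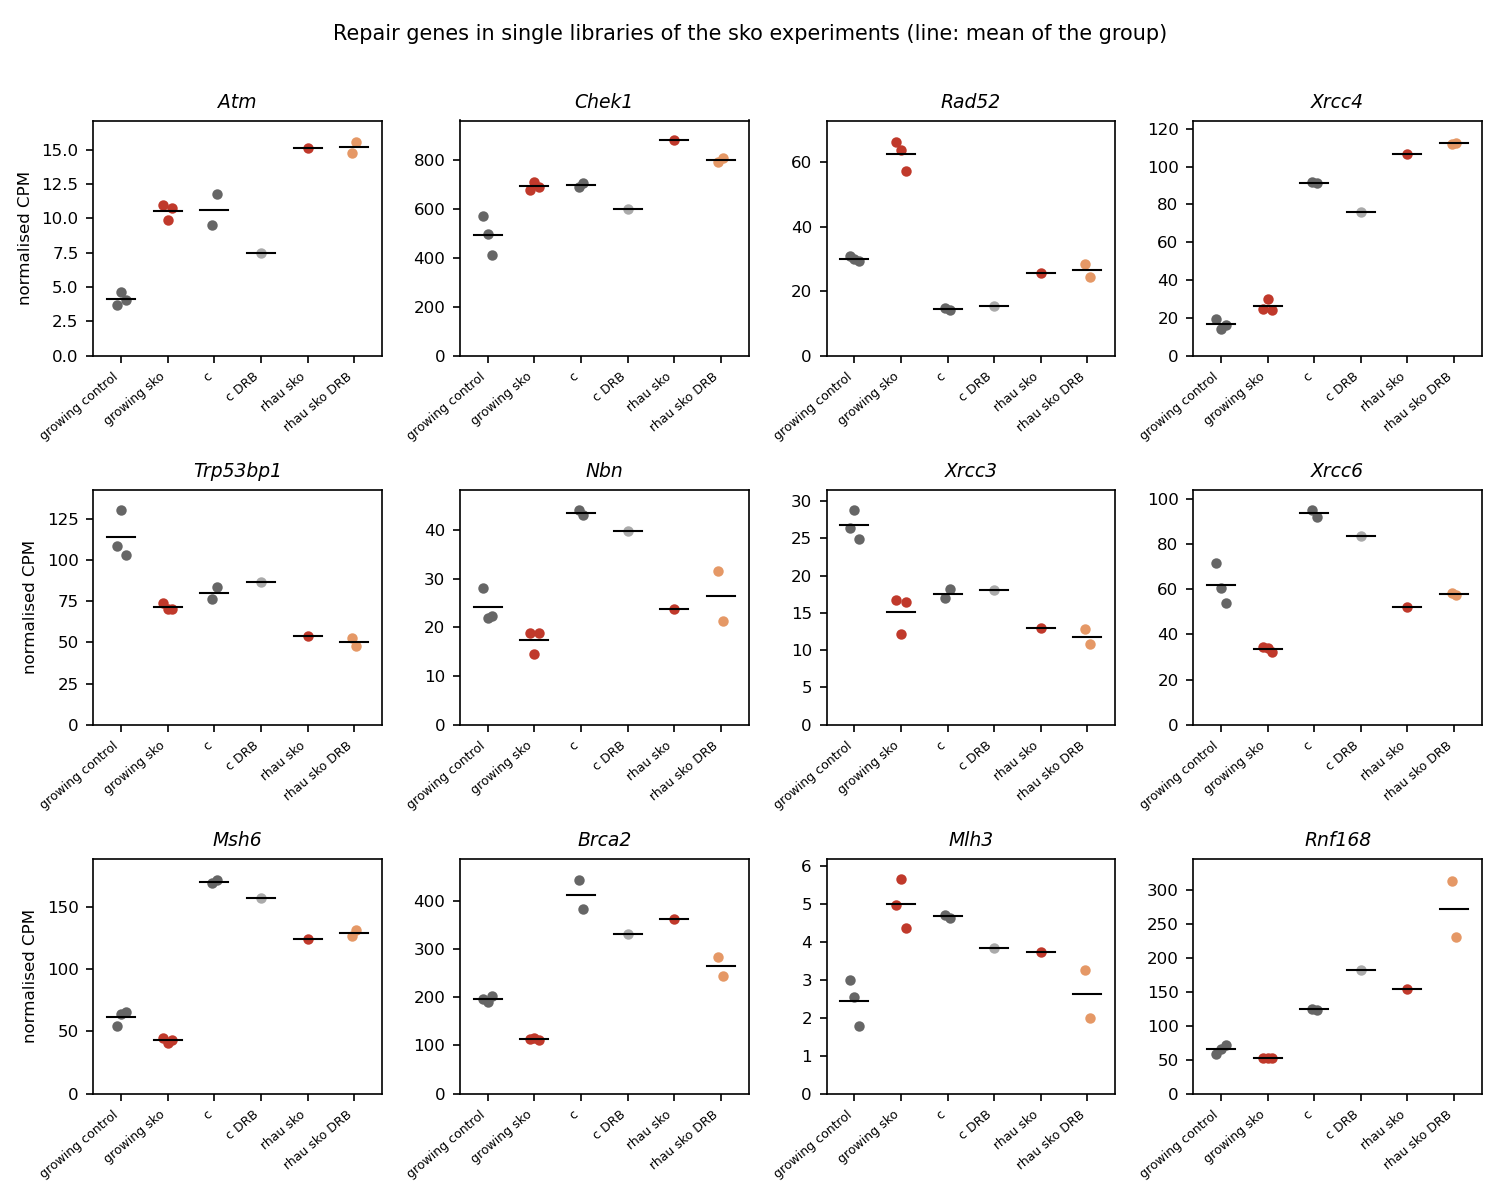
Normalised CPM (y axis, from 0) of 12 repair genes in each library of the 2 sko experiments, with a line at the mean of each group. Rad52, Atm, Chek1 and Xrcc4 are higher in sko libraries of both experiments, and Trp53bp1, Nbn, Xrcc3, Xrcc6 and Msh6 are lower. The sko change of Mlh3 and Rnf168 differs between the experiments, a difference that rests on few libraries. The 12 are among the genes called in both experiments or between them, so the separation of their groups follows from that choice.

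Whether the sko change itself differed between the 2 experiments was tested on all 12 libraries. By edgeR 2 repair genes were called with a higher change in the second experiment and 1 with a lower one, against 5.25% and 7.93% of all 16655 genes tested. Mlh3 rose in growing oocytes and read 4.71, 4.62 and 3.85 CPM in the c libraries and 3.72, 3.25 and 1.98 in the sko libraries of the second experiment, a difference of the log2 changes of -1.49 ± 0.39 (SE; edgeR adjusted p = 0.0164). Rnf168, lower in growing sko oocytes, read 125, 123 and 183 CPM in c libraries and 154, 314 and 231 in sko libraries of the second experiment, where the groups overlapped (0.45, edgeR adjusted p = 0.0254). Its difference was 0.73 ± 0.18 (SE; edgeR adjusted p = 0.0130). Brca2, at 443, 382 and 331 CPM against 361, 284 and 244 (-0.26, not called), changed less than in growing oocytes by 0.52 ± 0.16 (SE; edgeR adjusted p = 0.0356).

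These 3 differences rest on few libraries, and without c_DRB 3 the second experiment's sko change comes from the rhau_sko library alone. Without the c_DRB library none of them was called (Mlh3 -1.36, Rnf168 0.61, Brca2 0.60). The Mlh3 call also ended without growing control 3 (-1.20) or growing sko 5 (-1.29), and that of Brca2 without c 1 (0.54), c 2 (0.46), rhau_sko 5 (0.43) or rhau_sko_DRB 7 (0.48) and without the filter (0.49). With library size alone, which moved the median of all genes from -0.07 to -0.25, no repair gene had a called higher change and 2 had a called lower one, and Rnf168 (0.55) and Brca2 (0.33) were not called. For Rnf168 within the second experiment, the call of the sko change ended without c 1 (0.47) or c_DRB 3 (0.30) and with the shallow libraries (0.50). The other 35 repair genes were not called as different, and for 31 of the 38 the 95% interval of the difference stayed within 2-fold either way. Among these 35 were Atm (-0.61), Atr (0.08), Chek1 (-0.13), Chek2 (-0.33), Brca1 (-0.11), Trp53bp1 (-0.02), Prkdc (-0.31), Parp1 (-0.21) and Msh6 (0.13). Of 71 other repair genes tested, 5 were called in the higher and 6 in the lower direction, against 5.25% and 7.93% of all genes. Topbp1 (-1.17), which rose in growing sko oocytes, was among those called in the lower direction.

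**Figure D4:**
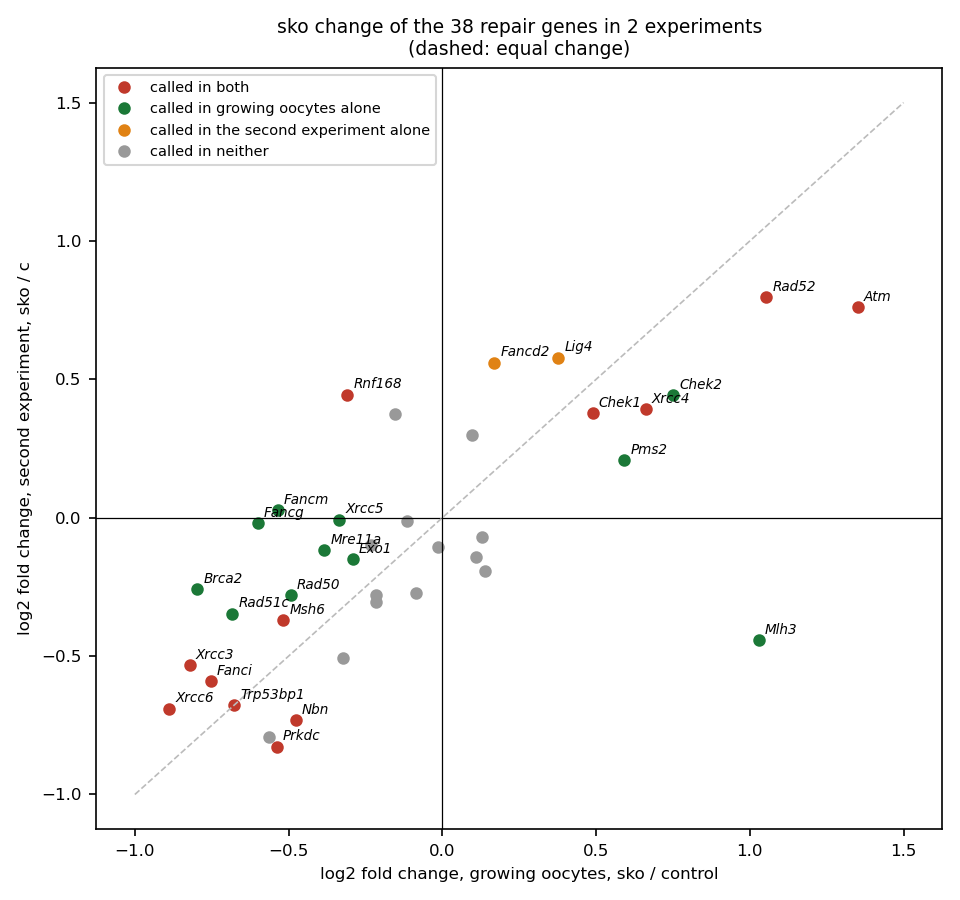
Log2 fold change of the 38 repair genes in growing oocytes (x axis) and in the second experiment (y axis), coloured by where they were called. Of the 12 genes called in both, 11 lie in the lower left or upper right quadrant, and Rnf168 lies in the upper left.

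The DRB comparison asks how transcripts differ with DRB, over 3 libraries with DRB and 3 without, with genotype as a term of the fit. Whether DRB blocked elongation in these libraries was not tested. No repair gene was called by edgeR, against a background of 0.00628% of 15923 genes tested called higher and 0.00628% called lower, which is 1 gene each way. At an unadjusted p under 0.05 there were 6 repair genes, DESeq2 called 2 and edgeR without the filter on low counts called 1. The shares of all genes at these settings are not given here, so these counts cannot be set against a background. Rnf168 was the gene with the smallest p and the 1 that edgeR called without the filter on low counts (0.69, edgeR adjusted p = 1.66e-05). It read 125 and 123 CPM in c and 154 in rhau_sko without DRB, and 183 in c and 314 and 231 in rhau_sko with DRB. All 3 DRB libraries lay above the 3 others, with a log2 fold change of 0.69 ± 0.14 (SE; edgeR adjusted p = 0.130, DESeq2 adjusted p = 0.000673). Brca2 read 443, 382 and 361 CPM without and 331, 284 and 244 with DRB, also without overlap (-0.39 ± 0.11, SE; edgeR adjusted p = 0.201, DESeq2 adjusted p = 0.0332). For 34 of the 38 genes the 95% interval stayed within a 2-fold change either way, and the bounds over the list ran from -1.31 to 1.20 on the log2 scale. Atm (-0.25), Atr (-0.29), Chek1 (-0.18), Chek2 (-0.55), Brca1 (-0.02), Trp53bp1 (0.00), Parp1 (0.09), Prkdc (-0.26) and Msh6 (-0.03) were among the genes not called. None of 71 other repair genes was called.

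GV oocyte libraries labelled cPDS at 12 h held less RNA of Rad51c, Parp1, Xrcc3 and Lig4 than GV_C, each lower by 2-fold or more. They held more RNA of Palb2, Fancd2, Brca1 and Xrcc5. The labels give no time for GV_C, so cPDS and the 12 h cannot be told apart in this comparison. By edgeR 8 of the 38 genes were called higher (21.1%) and 13 lower (34.2%), against 23.4% and 27.4% of all 16115 genes tested, and the median was 0.04 against 0.01 over all genes. The size of the 4 largest falls was not matched by any rise, since the highest log2 fold change was 0.55. Of the 17 called genes that the naming rule picked, 16 were called under every alternative, and Chek2 was the exception.

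Rad51c, the recombinase paralogue (chr11:87190147-87218456, minus strand), read 54.1, 52.0 and 48.9 CPM in GV_C and 17.4, 15.3 and 16.3 with cPDS. The groups were far apart beside their spread, with a 3.16-fold lower mean (log2 fold change -1.66 ± 0.09, SE; edgeR adjusted p = 6.70e-10). Xrcc3, its partner in the same complex (chr12:113041403-113052084, minus strand), read 47.0, 35.7 and 44.8 CPM against 12.5, 15.0 and 15.6 (-1.56 ± 0.12, SE; edgeR adjusted p = 3.36e-08). Xrcc2, the third paralogue gene of the list, was not called. Rad54l, which encodes a motor that helps strand exchange, fell from 35.2 ± 4.86 to 22.5 ± 0.908 CPM (SD, n = 3; log2 fold change -0.64, edgeR adjusted p = 0.000101). In the other direction, Palb2 read 54.0, 50.6 and 52.5 CPM in GV_C and 76.2, 74.0 and 80.1 with cPDS (0.55 ± 0.07, SE; edgeR adjusted p = 1.49e-05). Brca1 rose from 94.5, 93.0 and 85.1 CPM to 110, 119 and 126 (0.38, edgeR adjusted p = 0.000613), its partner Bard1 rose by 0.26, and Exo1, the resection nuclease gene, by 0.18. The Bard1 and Exo1 calls ended with library size alone (0.22 and 0.15). Brca2 was not called, at 302, 294 and 278 CPM against 305, 304 and 317, and Rad52 was not called either (34.5, 27.1 and 31.1 against 33.3, 35.6 and 29.8).

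Among the sensing genes 4 of 8 were called lower and none higher, against 27.4% and 23.4% of all genes. Parp1 (chr1:182499086-182531384, plus strand) read 22.8, 24.2 and 24.2 CPM in GV_C and 7.15, 7.34 and 8.54 with cPDS, a 3.10-fold lower mean (-1.62 ± 0.11, SE; edgeR adjusted p = 7.54e-09). Rnf8 read 446, 386 and 458 CPM against 269, 242 and 222 (-0.82 ± 0.08, SE; edgeR adjusted p = 7.29e-07), with the reservation given above on overlapping exons. Rnf168, which extends the marks that RNF8 starts, fell from 95.3, 106 and 89.5 CPM to 68.2, 64.1 and 68.0 (-0.54, edgeR adjusted p = 3.70e-05). Trp53bp1, which reads those marks, fell from 169, 131 and 165 CPM to 111, 103 and 105 (-0.54, edgeR adjusted p = 0.000106). The genes of the MRE11-RAD50-NBN complex were not called, though Mre11a was called lower with library size alone (-0.27). Of the damage kinase genes only Chek2 was called, at 5.44, 3.38 and 4.85 CPM against 3.22, 2.37 and 3.02 (-0.66, edgeR adjusted p = 0.0129), and not without GV_C 1 (-0.51) or cPDS 2 (-0.54). Atm read 8.96, 8.02 and 7.67 CPM against 5.18, 6.38 and 7.63, which do not overlap but were not called (-0.35, edgeR adjusted p = 0.0636). It was called without cPDS 3 (-0.51) and with library size alone (-0.39). Chek1 (-0.09) and Atr (0.18) were not called.

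End joining genes split in the cPDS libraries. Lig4 (chr8:9970020-9977686, minus strand) read 30.3, 33.1 and 35.1 CPM in GV_C and 16.5, 15.5 and 16.3 with cPDS, a 2.04-fold lower mean (-1.03 ± 0.09, SE; edgeR adjusted p = 2.72e-07). Its partner Xrcc4 went from 62.0, 67.4 and 62.1 CPM to 78.0, 85.6 and 86.4 (0.38, edgeR adjusted p = 0.000532), so the ligase gene and the gene of its cofactor were called in opposite directions. The Ku genes did likewise. Xrcc5 read 277, 284 and 276 CPM against 363, 359 and 360 (0.37 ± 0.06, SE; edgeR adjusted p = 7.29e-05), and Xrcc6 140, 127 and 127 against 106, 91.0 and 91.4 (-0.45 ± 0.08, SE; edgeR adjusted p = 0.000202). Prkdc was not called (13.9, 11.97 and 14.0 CPM against 13.1, 16.7 and 16.5), and was called without cPDS 1 (0.34). Msh6 fell from 177, 156 and 170 CPM to 129, 118 and 118 (-0.46, edgeR adjusted p = 7.91e-05) and Pms2 by 0.26, while Mlh3 was not called (0.40). Of the Fanconi genes, Fancd2 rose from 41.1, 40.4 and 37.8 CPM to 52.5, 66.5 and 54.6 (0.54, edgeR adjusted p = 0.000202) and its partner Fanci fell from 17.5, 14.7 and 16.9 to 12.9, 13.0 and 11.8 (-0.39, edgeR adjusted p = 0.00811). Fancl, the ligase gene of the Fanconi core complex, rose from 22.3, 22.6 and 22.3 CPM to 29.3, 31.4 and 30.3 (0.44, edgeR adjusted p = 0.000558).

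Of 72 other repair genes tested, 20 were called higher and 28 lower with cPDS, against 23.4% and 27.4% of all genes tested. Swi5, of a recombinase accessory complex, fell from 145 to 17.1 CPM, the polymerase subunit gene Pold2 from 38.6 to 5.48, Tdp2, which releases trapped topoisomerase, from 118 to 37.8 and Uimc1, of the BRCA1-A complex, from 61.4 to 23.8 (means, n = 3). Oocyte markers summed to 25977 to 28350 CPM in GV_C and 32802 to 36313 with cPDS, and 8 of 14 were called higher and 4 lower. Granulosa and cumulus markers summed to 312 to 318 CPM against 274 to 292, theca and stroma markers to 4.65 to 5.14 against 4.91 to 7.98, and immune, endothelial and blood markers to 57.3 to 60.8 against 16.8 to 17.2. Their part in the repair gene results was not tested. Dhx36 itself read 23.0, 20.6 and 20.9 CPM in GV_C and 31.3, 36.9 and 38.3 with cPDS.

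**Figure D5:**
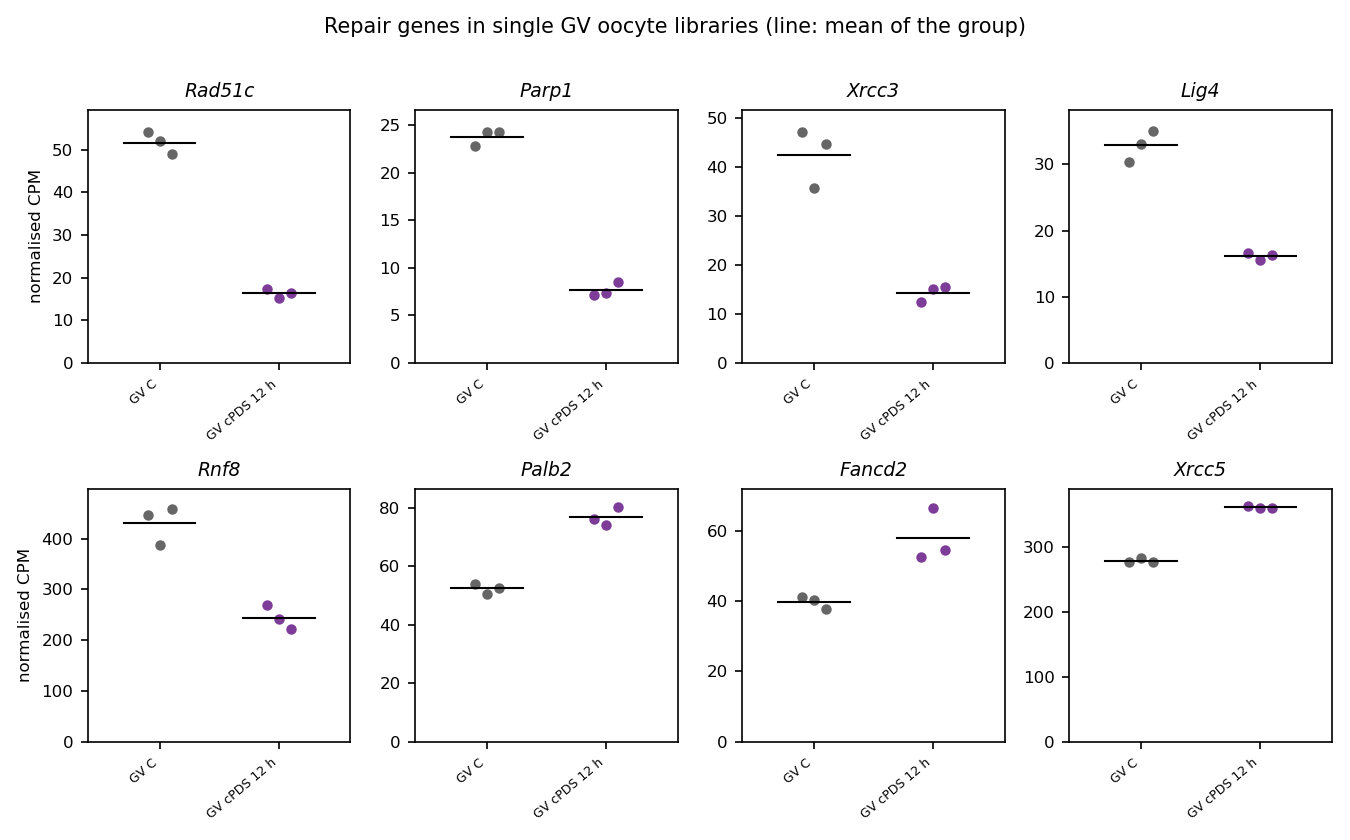
Normalised CPM (y axis, from 0) of 8 repair genes in the 3 GV_C and 3 cPDS libraries, with a line at the mean of each group. Rad51c, Parp1, Xrcc3, Lig4 and Rnf8 are lower and Palb2, Fancd2 and Xrcc5 higher with cPDS. The 8 are among the genes called with the smallest p, so the separation of their groups follows from that choice.

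The Trim21 comparison at 3 h sets libraries labelled Trim21 against controls at 3 h. Trim21 RNA read 14.6, 14.7 and 14.8 CPM in controls and 8473, 9310 and 7620 in Trim21 libraries, and Dhx36 RNA 29.6, 32.0 and 29.9 against 6.23, 8.17 and 8.77. No repair gene was called by edgeR, against 6.26% of all 14191 genes tested called higher and 5.23% called lower. There were 3 repair genes at an unadjusted p under 0.05 (Prkdc, Xrcc4 and Trp53bp1, all with higher means), and DESeq2 called 0. The share of all genes at that unadjusted threshold is not given here, so the 3 cannot be set against a background. Prkdc read 10.6, 7.79 and 9.16 CPM in controls and 13.5, 14.7 and 12.6 in Trim21 libraries, without overlap (0.56 ± 0.18, SE; edgeR adjusted p = 0.0737). Xrcc4 read 67.4, 87.5 and 73.7 CPM against 101, 95.3 and 93.2 (0.34, edgeR adjusted p = 0.110), and was called without control 2 (0.44, edgeR adjusted p = 0.0193). Trp53bp1 read 57.7, 56.9 and 54.4 CPM against 69.6, 67.9 and 66.1 (0.27, edgeR adjusted p = 0.160). Atm (-0.19), Atr (0.20), Chek1 (0.02), Chek2 (0.38), Brca1 (0.11), Brca2 (-0.18), Parp1 (0.25) and Msh6 (0.18) were not called either. For 34 of the 38 genes the 95% interval stayed within a 2-fold change. The smallest library of this experiment held 7452742 counts, and Mlh3 was limited most, with an SE of 0.56. Of 70 other repair genes tested, 4 were called higher and 1 lower, led by the end joining polymerase gene Polm, which went from 4.94 to 14.9 CPM (means, n = 3).

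Over the 5 comparisons, 32 of the 38 genes (84.2%) were called in at least 1, near the 86.1% of the 12691 genes tested in all 5. The 6 genes called in none were Atr, Mdc1, Rbbp8, Xrcc2, Fanca and Fancc, named here after their values were seen.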

How the data were processed

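RNA sequencing read counts of 24 mouse oocyte libraries were used. The values are raw counts per gene as the authors deposited them, and per the file headers the columns have the layout of featureCounts output. Build mm9, HISAT2 2.1.0, STAR 2.5.2b and featureCounts 2.0.1 are named in the submitters' processing notes, which do not say which aligner made which table. No source used here gives the strand setting or the handling of reads that fit several genes, so the 14 repair genes whose exons overlap another gene are uncertain where much is shared (15.4% in Rad54l, 14.8% in Fanci, 13.7% in Fancl, 15% in Trp53bp1, 41.6% in Rnf8). No column was unmapped, no libraries held identical values, and replicates differed beyond counting noise.

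The main test was that of edgeR 4.0.16 under R 4.3.3 (filterByExpr with a minimum count of 10, TMM scaling, quasi-likelihood test, Benjamini-Hochberg adjustment over all genes tested, threshold 0.05). SEs were obtained by dividing each absolute log2 change by the root of its F statistic. Normalised CPM use the TMM-scaled library size of each experiment, and levels per kb the exonic length in the files. The growing, cPDS and Trim21 comparisons were fitted on 6 libraries each, the second experiment on 6 with genotype and DRB as terms, and the difference between experiments on 12. The 2 libraries under 200000 counts were left out. The scripts were checked on simulated counts.

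The repair genes, the other lists and the naming rule were chosen with earlier results of these data known. Named in each comparison are Atm, Atr, Chek1, Chek2, Brca1, Brca2, Trp53bp1, Prkdc, Parp1 and Msh6. The rule added the 6 called higher and the 6 called lower with the smallest p and genes called in both sko comparisons or between them. It also added at most 4 other repair genes, Dhx36 and Trim21. In the DRB, Trim21 and between-experiment comparisons, genes added for their sko calls are not all printed. Further genes were named after their values were seen. Alternatives were DESeq2 1.42.0, its size factors in edgeR, library size alone, no filter, each library left out, the replicate number as a block and all 8 libraries of the second experiment.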

Additional observations from a re-analysis of the deposited data

Results flagged for a closer look

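The difference of the sko change between the second experiment and growing oocytes passed edgeR's test for 3 repair genes. These are 7.89% of the 38, against 13.2% of all 16655 genes tested, so the count is not above the background. For Rnf168 the difference was 0.73 (log2; edgeR adjusted p = 0.0130), with changes of -0.31 in growing oocytes and 0.45 in the second experiment. For Brca2 it was 0.52 (edgeR adjusted p = 0.0356), with changes of -0.80 and -0.26. For Mlh3 it was -1.49 (edgeR adjusted p = 0.0164), with changes of 1.03 and -0.44. Without the c_DRB library all 3 differences missed the threshold (0.61, 0.60 and -1.36). In that fit the sko change of the second experiment comes from the rhau_sko library alone. The Mlh3 levels are low, at 1.79 to 5.65 normalised CPM over both experiments.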

How the results depend on the processing

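No called direction of a gene that the naming rule picked reversed under any alternative run. In growing sko oocytes, 23 repair genes were called, and 15 to 22 when 1 library was left out, the 15 without sko 5 and also without sko 6. Of the 18 called genes that the naming rule picked, 11 were called under every alternative run. In the second experiment, 14 were called, 7 with all 8 libraries and 7 to 14 with 1 library left out, the lowest without c 1 and without c_DRB 3. There, 3 of the 14 were called under every alternative. For DRB, where edgeR called 0, DESeq2 called 2 and edgeR without the filter 1. For Trim21, leaving out 1 library gave 0 or 1, the 1 without control 2. Between experiments, 3 were called, 5 by DESeq2 and 0 to 4 with 1 library left out, the 0 without c_DRB 3. For cPDS, 21 were called, and 17 to 21 with 1 library left out. The replicate block left 18 cPDS calls (6 higher, 12 lower) and 0 for Trim21. The shares of all genes called in these alternative fits are not given here. A lower or higher count therefore cannot be read as a trait of the repair genes. The counts of intervals within 2-fold likewise have no share of all genes beside them. Same-numbered libraries did not clearly deviate together (correlations -0.059 to -0.033 for cPDS and -0.049 to 0.091 for Trim21). Libraries of different number gave -0.0035 to 0.039 and -0.158 to 0.102. These few values show no sign of pairing by number, but they cannot exclude it. The groups of the growing oocyte and second experiments share no replicate numbers. Alternatives other than the scaling were run for single genes only where the naming rule picked them. In the second experiment 1 library stands alone in 2 of the 4 groups, so its fit pools the spread over groups. Without c_DRB 3 or rhau_sko 5, its sko change rests on 1 library of 1 genotype.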

Other observations

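The 2 libraries left out for depth held 411 counts of the 38 repair genes (c_DRB replicate 4, with 4 counts or 31.0 CPM of Dhx36) and 401 counts (the library labelled rhau_sko replicate 6, with 6 counts or 46.9 CPM of Dhx36). Fits that include them are those with all 8 libraries.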
